A study of Arabidopsis thaliana with 6 samples.

Results

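The plant defensins PDF1.4, LCR69 and PDF1.2 and the thionin THI2.1 are 4 Arabidopsis genes of small antimicrobial peptides. They were chosen by name, with their difference between p53-transgenic and wild type seedlings already known, so that difference is described here and not tested. Each has 1 probe set, a group of short sequences matched to a transcript, out of 13513 probe sets that name 1 gene and 22746 in all. The other defensin and thionin genes, the jasmonate pathway and the differences between replicates were examined beside them.

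The samples were 10-day-old seedlings of the Col-0 ecotype, wild type (WT) or carrying 35S:P53, which expresses human p53 from the constitutive 35S promoter of cauliflower mosaic virus (p53). RNA of 3 WT and 3 p53 samples was measured on ATH1 arrays. The labels state that the replicates come from 3 independent experiments. The sources used here do not name the transgenic line or the number of seedlings behind an array, and the transgene itself was not measured. Median values per array lay between -0.02 and 0.01. Every value below is a log2 expression value relative to the median of the 6 arrays for that probe set. Such values give differences between arrays and no level, so the genes cannot be ranked by abundance and the tissue cannot be checked against its markers. The base of the log is taken as 2, and fold changes depend on that reading.

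Defensins are small secreted peptides held together by disulfide bridges between conserved cysteines, and many of them inhibit the growth of fungi. Thionins are another class of small cysteine-rich peptides, toxic to microbes through their action on membranes. In Arabidopsis some members of both classes are part of the defence controlled by jasmonate, a lipid hormone made after wounding or attack. PDF1.2 is a widely used marker of the branch in which jasmonate acts together with ethylene, and THI2.1 is induced by jasmonate. LCR69 is also called PDF2.2. PDF1.4 and LCR69 are not used as jasmonate markers.

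PDF1.4 was higher and LCR69 lower in all p53 arrays than in any WT array, whereas the arrays of the genotypes overlapped for the jasmonate markers PDF1.2 and THI2.1. PDF1.4 (locus AT1G19610, chromosome 1) had values of -1.85, -1.66 and -1.93 in WT replicates 1, 2 and 3. In p53 replicates 1, 2 and 3 they were 1.66, 2.35 and 2.78. The genotypes were far apart, and the spread was wider among the p53 arrays, with a mean of -1.81 ± 0.14 (SD, n = 3) in WT and of 2.26 ± 0.57 (SD, n = 3) in p53. The log2 difference, p53 minus WT, was 4.08 (standard error 0.27, 95% interval 3.45 to 4.71), which is 16.9-fold. Centring on the median of 6 arrays makes the highest WT and the lowest p53 value of such a gene mirror each other around 0, so the mirrored 1.66 holds no information of its own.

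LCR69 (AT2G02100, chromosome 2) moved the other way. Its values were 1.06, 0.85 and 0.95 in the WT arrays and -0.85, -1.26 and -1.72 in the p53 arrays. The 3 WT arrays lay close together, at 0.95 ± 0.11 (SD, n = 3), and the p53 arrays were again more spread, at -1.28 ± 0.44 (SD, n = 3). The log2 difference was -2.23 (standard error 0.21, 95% interval -2.73 to -1.73), so WT exceeded p53 4.69-fold. Among all 22746 probe sets, the WT and p53 arrays did not overlap for 34.3%, with p53 higher for 14.8% and lower for 19.4%. Since the genes were chosen with this contrast known, nothing is read from 2 of 4 against that share.

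The size of both changes differed among the replicates in the same way. For PDF1.4 the p53 minus WT difference was 3.51 in replicate 1, 4.01 in replicate 2 and 4.71 in replicate 3. For LCR69 it was -1.91, -2.11 and -2.67. Replicate 3 gave the largest difference and replicate 1 the smallest for both genes. Over all probe sets the median absolute difference was 0.19, 0.18 and 0.23 in replicates 1, 2 and 3, so replicate 3 also had the widest differences on the array as a whole. Across the 6 arrays the deviations of PDF1.4 and LCR69 from their genotype means correlated with r = -0.97, as a description of arrays that share labelling and scanning.

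PDF1.2 (AT5G44420, chromosome 5) did not separate the genotypes. Its values were -1.27, -0.16 and 1.14 in WT replicates 1, 2 and 3, and -2.10, 0.16 and 1.19 in p53 replicates 1, 2 and 3. Replicate 1 was lowest and replicate 3 highest in both genotypes, and within replicates 2 and 3 the genotypes lay close together, while in replicate 1 p53 was 0.83 below WT. The means were -0.10 ± 1.21 (SD, n = 3) in WT and -0.25 ± 1.68 (SD, n = 3) in p53. The log2 difference was -0.16 (standard error 0.92, 95% interval -2.33 to 2.02), an interval that still holds a change of either sign larger than that of THI2.1. Its sign rested on single arrays, since it was 0.46 without WT replicate 3 and 0.77 without p53 replicate 1, and 0.32 with medians in place of means. With the replicate number as a block, a fit that compares the genotypes within each replicate, the difference stayed at -0.16 and its standard error became 0.23. Within replicates it was -0.83, 0.32 and 0.05.

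THI2.1 (AT1G72260, chromosome 1) was higher in p53 in replicates 2 and 3 and lower in replicate 1. Its values were 0.26, -0.98 and -0.54 in WT replicates 1, 2 and 3 and -0.26, 0.44 and 1.99 in p53 replicates 1, 2 and 3. The value of WT replicate 1 lay above that of p53 replicate 1, so the genotypes overlapped. The log2 difference was 1.15 (standard error 0.58, 95% interval -0.23 to 2.52), from -0.42 ± 0.63 (SD, n = 3) to 0.72 ± 1.15 (SD, n = 3). Without p53 replicate 3 it was 0.51. The differences within replicates 1, 2 and 3 were -0.51, 1.42 and 2.53. Replicate 3 gave the largest difference, as for PDF1.4 and LCR69, but the sign of THI2.1 differed between replicates and theirs did not. The block left its standard error at 0.56, whereas that of PDF1.2 became smaller.

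**Figure D1:**
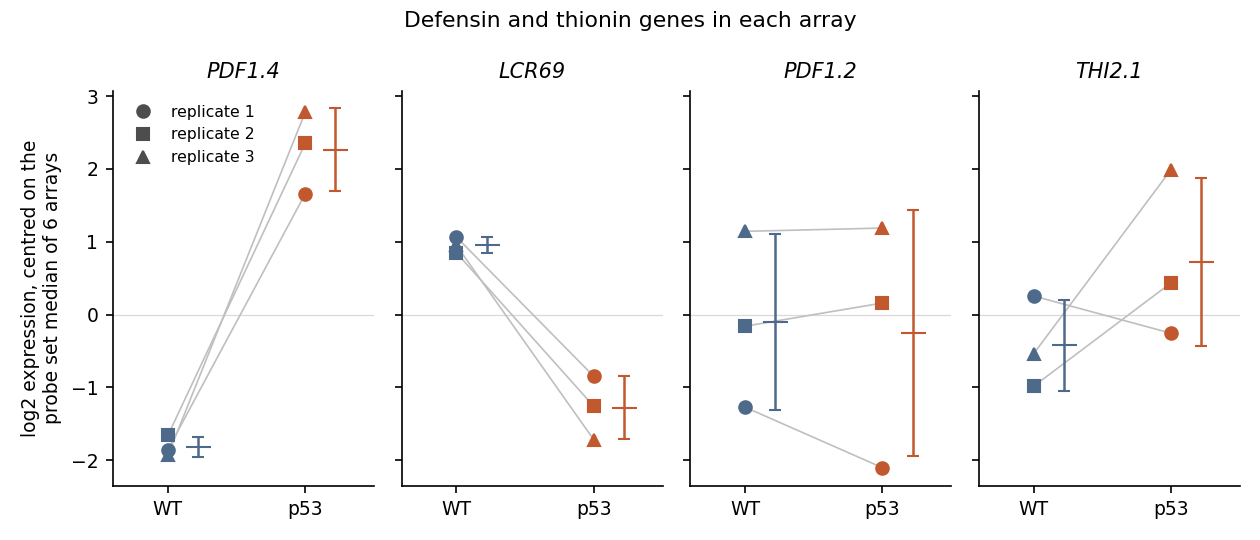
Centred log2 expression (y axis) of PDF1.4, LCR69, PDF1.2 and THI2.1 in the WT and p53 arrays (x axis). Each symbol is 1 array, grey lines join the same replicate number, and bars show the mean and SD (n = 3). PDF1.4 rises from near -1.81 to 2.26, LCR69 falls from 0.95 to -1.28, and for PDF1.2 and THI2.1 the arrays of the genotypes overlap.

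The jasmonate markers and the other defensins were also set against each other within each array, as a description, since the genes were chosen on this contrast. The value of PDF1.4 minus that of PDF1.2 was -0.58, -1.50 and -3.08 in the WT arrays and 3.76, 2.19 and 1.59 in the p53 arrays, all p53 arrays lying above all WT arrays, which restates the difference of PDF1.4. The value of THI2.1 minus that of PDF1.2 was 1.53, -0.82 and -1.68 in WT and 1.85, 0.28 and 0.80 in p53, with overlap. These gaps compare deviations from each gene's own median and say nothing about which gene is more abundant. Over the 6 arrays r was 0.34 between PDF1.2 and THI2.1, 0.06 between PDF1.2 and PDF1.4 and 0.69 between THI2.1 and PDF1.4. For deviations from the genotype means the same pairs had r of 0.48, 0.74 and 0.73, and PDF1.2 and LCR69 had r = -0.83. Over all arrays the genotype difference of PDF1.4, known when it was chosen, makes up most of its spread. The r of 0.06 and 0.74 for PDF1.2 and PDF1.4 are therefore not read against each other. These are descriptions of 6 arrays of 2 genotypes, and a genotype difference of either gene enters r over all arrays. The bulk RNA of whole seedlings cannot tell fewer cells that express a gene from less RNA per cell. Of 21 root, leaf, flower and seed marker genes, 3 had a probe set that names them alone. The root genes PYK10 and EXPA7 had log2 differences of -0.03 and -0.02 and the leaf gene RCA one of 0.12, none of which passed the test given below.

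Of 92 genes of the reference that belong to the defensin and thionin families by symbol or name, or that were listed with them, 16 have a probe set of their own here. The 12 genes besides the 4 above mostly differed little. Differences were tested with limma, which moderates each probe set's spread by that of all others, with p-values adjusted over all 22746 probe sets by the Benjamini-Hochberg method. At an adjusted p under 0.05 the test called 15.4% of all probe sets, 6.55% higher and 8.84% lower in p53. Among the 12 genes, PDF2.1 passed as lower and the other 11 did not pass, with a median log2 difference of -0.01, the same as the median of -0.01 over all probe sets. By the thresholds of the study, a fold change above 2 at an unadjusted p under 0.05, here with limma's p, AT1G66100 was higher and none was lower, beside 3.14% and 2.73% of all probe sets.

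The gene that passed was PDF2.1, a defensin that fell in p53. Its values were 0.26, 0.30 and 0.25 in the WT arrays and -0.41, -0.25 and -0.26 in the p53 arrays. Both genotypes were tight, at 0.27 ± 0.03 and -0.31 ± 0.09 (SD, n = 3 each), and did not overlap. The log2 difference was -0.58 (standard error 0.08, limma adjusted p = 0.00552, with 0.000480 to 0.0308 over the alternatives), or 1.49-fold. PDF2.1 is the second protein-coding gene after LCR69 on chromosome 2 in the reference, followed by the defensins LCR68 and LCR72. LCR68 had a log2 difference of -0.20 (limma adjusted p = 0.321) and LCR72 one of 0.24 (limma adjusted p = 0.236). In the row of 4 defensins the estimates thus ran from -2.23 for LCR69, which was chosen with this difference known, to 0.24 for LCR72. Of the genes tested in this row, PDF2.1 alone had an interval away from 0, at -0.78 to -0.38. LCR72 passed without p53 replicate 2, at a log2 difference of 0.35 (limma adjusted p = 0.0447).

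LCR24, LCR59, LCR66, LCR67, PDF2.5 and THI2.2 had log2 differences from -0.10 for LCR66 to 0.11 for LCR24 and did not pass under any alternative. Their intervals bound the change, the widest being that of THI2.2, a thionin like THI2.1, at -0.39 to 0.40. LCR67, also named PDF1.1, had an interval of -0.19 to 0.18. LCR80 had a log2 difference of -0.27 and did not pass (limma adjusted p = 0.160), although its arrays did not overlap. A gene that is not expressed in seedlings would also give values near 0, and without levels that cannot be told apart from a gene that is expressed and unchanged.

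**Figure D2:**
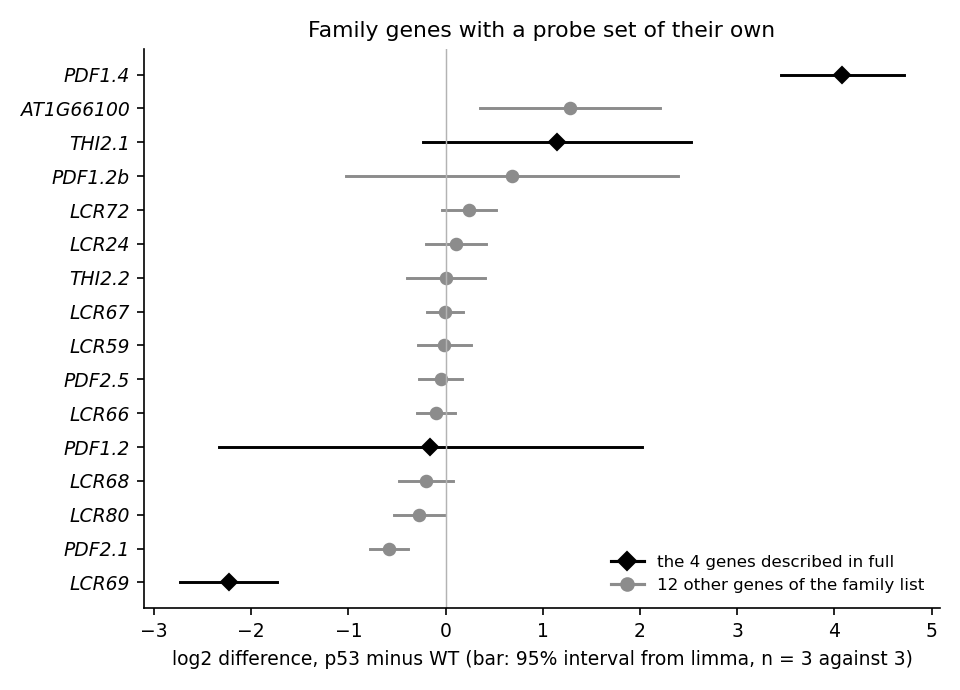
Log2 difference, p53 minus WT (x axis), of the 16 defensin and thionin genes with a probe set that names them alone (y axis). Points are estimates and bars 95% intervals from limma (3 against 3 arrays), black for the genes described in full and grey for the 12 others. PDF1.4 at 4.08 and LCR69 at -2.23 lie at the ends, PDF1.2 and PDF1.2b have wide intervals, and most others lie near 0.

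The replicate numbers separated the arrays of PDF1.2 and of its close relative PDF1.2b more than the genotypes did. PDF1.2b (AT2G26020, chromosome 2) had values of -1.26, -0.49 and 1.16 in WT replicates 1, 2 and 3, and of -0.57, 0.49 and 1.53 in p53 replicates 1, 2 and 3. As for PDF1.2, replicate 1 was lowest and replicate 3 highest in both genotypes. Its probe set has the suffix that marks probes able to match other transcripts, so signal of PDF1.2 or PDF1.2c in it cannot be told apart, and its values are not independent of those of PDF1.2. Over all 22746 probe sets, 23.3% had the same order of the replicates in both genotypes. Averaged over the genotypes, replicate 3 exceeded replicate 1 by 2.85 for PDF1.2 and by 2.26 for PDF1.2b. The largest difference between replicate numbers was greater for PDF1.2 than for any other of the 22746 probe sets, PDF1.2b ranked 7, and the median over all was 0.19.

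This pattern was seen in the values first and then tested. An F test of the replicate number beside the genotype in limma gave PDF1.2 an unadjusted p of 0.000406 and PDF1.2b one of 9.62e-05, in places 15 and 3 of the 22746 probe sets. After adjustment both had an adjusted p = 0.499. No probe set passed (0%), while 8.98% had an unadjusted p under 0.05. With the trend and robust options of eBayes 1232 probe sets passed, with an adjusted p of 1.61e-09 for PDF1.2 and 2.74e-08 for PDF1.2b, so the call depended on how the spread was modelled. Under the other alternatives their adjusted p was at least 0.0669 and 0.0580. The other 3 genes described in full had unadjusted p of 0.129 for LCR69, 0.235 for PDF1.4 and 0.391 for THI2.1. The sources used here do not say whether equal replicate numbers of WT and p53 share an experiment, or what differed between the replicates.

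**Figure D3:**
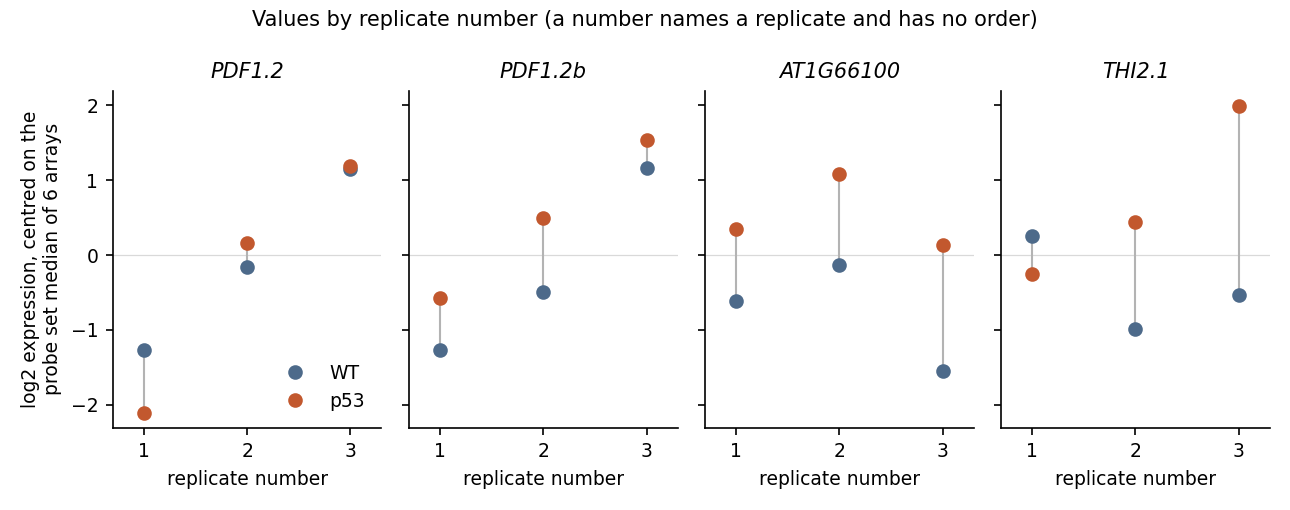
Centred log2 expression (y axis) of PDF1.2, PDF1.2b, AT1G66100 and THI2.1 by replicate number (x axis), with WT in blue and p53 in orange and a grey line joining the arrays of 1 replicate. PDF1.2 runs from -1.27 to 1.14 in WT and from -2.10 to 1.19 in p53, with replicate 1 lowest and replicate 3 highest in both, and AT1G66100 is higher in p53 in each replicate.

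Comparing the genotypes within replicates, pairs that were accepted on the basis of these same data, changed the call of 2 family genes. For PDF1.2b the log2 difference of 0.68 had a standard error of 0.72 without the block (limma adjusted p = 0.610) and of 0.14 with the block (limma adjusted p = 0.0311), and it was 0.69, 0.98 and 0.37 in replicates 1, 2 and 3. PDF1.2b was thus higher in p53 in each replicate by 0.37 to 0.98, whereas PDF1.2 was lower in replicate 1. AT1G66100, a locus listed with the thionins for which the annotation gives no symbol, had values of -0.61, -0.14 and -1.55 in WT and of 0.35, 1.08 and 0.14 in p53. Replicate 2 was highest and replicate 3 lowest in both genotypes, an order unlike that of PDF1.2. Its log2 difference was 1.28 (2.44-fold), with a standard error of 0.39 and a limma adjusted p of 0.0735 without the block and of 0.16 and 0.00832 with it. Over the alternatives the adjusted p ran from 0.00832 to 0.226 for AT1G66100 and from 0.0311 to 0.941 for PDF1.2b. With the block 17.0% of all probe sets were called.

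**Figure D4:**
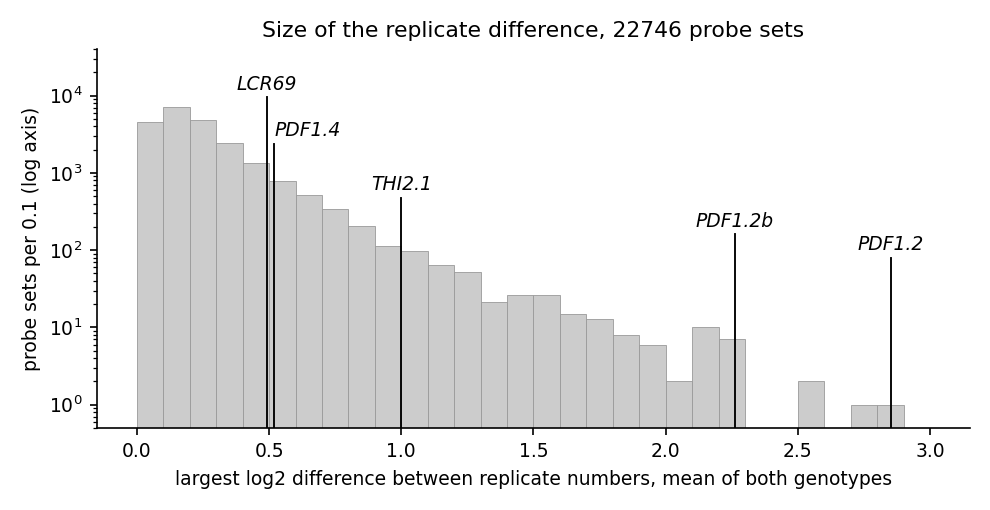
Histogram of the largest log2 difference between replicate numbers, averaged over the genotypes (x axis), with the number of the 22746 probe sets in each bin on a log axis (y axis). Lines mark LCR69 at 0.49, PDF1.4 at 0.52, THI2.1 at 1.0, PDF1.2b at 2.26 and PDF1.2 at 2.85, the largest of all.

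Since PDF1.2 and THI2.1 are read as jasmonate markers, the genes that make, sense and remove the hormone were compared by the same test. Of 65 genes on 4 jasmonate lists, 11 could be named on the array, none of them from the list of 10 response genes. Of the 11, 2 were higher and 2 lower in p53 and 7 did not pass, beside 6.55% and 8.84% of all probe sets, and the median log2 difference was 0.06. The lists therefore do not stand for the whole pathway.

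Both genes that rose were on the list for modification and breakdown of the hormone. JRG21, an oxygenase that inactivates jasmonic acid, had values of -0.90, -1.68 and -1.51 in the WT arrays and of 0.90, 1.01 and 1.56 in the p53 arrays. Its log2 difference was 2.52 (standard error 0.25, limma adjusted p = 0.00138), or 5.72-fold. AT2G38240, on the same list and without a symbol in the annotation, had values of -0.89, -0.84 and -0.77 in WT and of 0.77, 2.14 and 0.82 in p53. Its log2 difference was 2.08 (standard error 0.35, limma adjusted p = 0.00999), and the high p53 array was replicate 2, not replicate 3 as for PDF1.4. The other members, JMT, which methylates jasmonic acid, and the loci AT3G11180 and AT5G05600, had log2 differences of 0.69, 0.19 and 0.37 and did not pass. All 5 members of this list that could be named, out of 11 listed, had a positive estimate. Nothing is read from that for the list. The intervals of AT3G11180 and AT5G05600 held 0, at -0.03 to 0.40 and -0.28 to 1.01. The methods' t-test, so called because the study names a t test, left AT2G38240 above the threshold (adjusted p = 0.0862).

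The genes that fell act in signalling and synthesis. ORA47, a transcription factor that activates genes of jasmonate synthesis, had values of 1.33, 1.3 and 2.11 in WT and of -2.55, -1.3 and -1.76 in p53. Its log2 difference was -3.45 (standard error 0.35, limma adjusted p = 0.00152). OPCL1, a CoA ligase of jasmonate synthesis, had values of 0.38, 0.14 and 0.73 in WT and of -0.30, -0.14 and -0.18 in p53. Its log2 difference was -0.62 (standard error 0.15, limma adjusted p = 0.0391). OPCL1 lost its call without WT replicate 1, without WT replicate 3, without p53 replicate 1 or without p53 replicate 3 (limma adjusted p of 0.113, 0.0856, 0.140 and 0.0577). It also lost it with the trend and robust options of eBayes (adjusted p = 0.0566) and with the methods' t-test (adjusted p = 0.139). The synthesis genes AIM1 and DGL had log2 differences of 0.06 and 0.04. MYC3 and MYC4, transcription factors that are held inactive by JAZ proteins until jasmonate is sensed, had log2 differences of -0.46 and -0.45 and did not pass (limma adjusted p = 0.0531 and 0.192). Without p53 replicate 2 both passed, with -0.59 and -0.66 (limma adjusted p = 0.0113 and 0.0268), so that 4 genes were lower. MYC3 also passed with quantile normalization, at a log2 difference of -0.39 (limma adjusted p = 0.0448).

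None of these 11 genes shared the replicate pattern of PDF1.2 in size. Their largest difference between replicate numbers ran from 0.03 to 0.78, with a median of 0.27 and the highest value for ORA47, against 2.85 for PDF1.2.

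**Figure D5:**
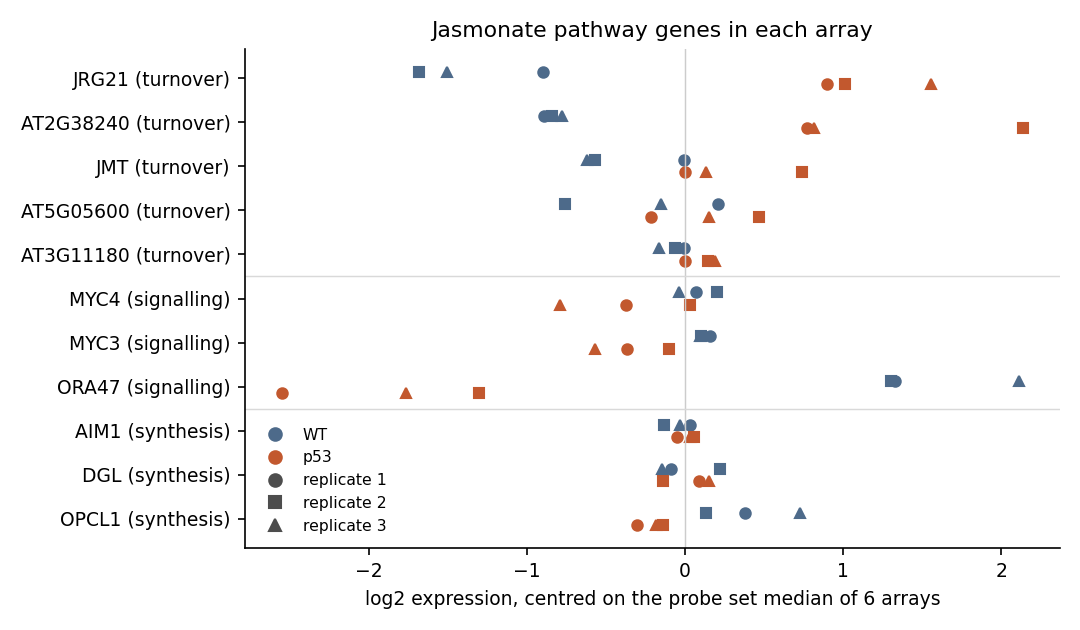
Centred log2 expression (x axis) of the 11 jasmonate pathway genes that could be named (y axis), with WT in blue, p53 in orange and a symbol for each replicate number. The arrays of the genotypes do not overlap for 7 of the 11 genes, with JRG21, AT2G38240, JMT and AT3G11180 higher and ORA47, OPCL1 and MYC3 lower in p53, beside 34.3% of all probe sets.

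Few genes of the neighbouring defence branches could be named. EIN3, the transcription factor of ethylene signalling upstream of PDF1.2, was the 1 gene of 25 on the ethylene list that could be named. It had a log2 difference of 0.01 (95% interval -0.17 to 0.20, limma adjusted p = 0.942). Of 23 genes on the salicylic acid list, SAG101 and GRX480 could be named. GRX480, a glutaredoxin that represses PDF1.2 when overexpressed, had values of -0.74, -0.35 and 0.51 in WT and of 0.35, -0.92 and 1.08 in p53. For GRX480 replicate 3 was highest in both genotypes, as for PDF1.2 and SAG101. Its lowest p53 array was replicate 2, and that of PDF1.2 was replicate 1. Its log2 difference was 0.36 (standard error 0.53, limma adjusted p = 0.733). SAG101 had a log2 difference of 0.38 (limma adjusted p = 0.574) and passed without p53 replicate 2, at 0.81 (limma adjusted p = 0.0363). None of 4 camalexin genes could be named. Of 24 other genes of small secreted peptides, 2 could be named. AT1G22690 rose by 1.36 (standard error 0.09, limma adjusted p = 0.000242), from -0.62, -0.70 and -0.61 in WT to 0.61, 0.80 and 0.73 in p53, and AT5G59845 had a log2 difference of -0.15 (limma adjusted p = 0.371).

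The genes next to the 4 along the chromosomes were also examined, a choice made after the values were seen. Of the 4 nearest protein-coding genes on each side, 22 of 32 have a probe set of their own, of which 4 were higher and 2 lower, beside 6.55% and 8.84% of all probe sets. Nothing particular to these neighbourhoods is read from so few genes. Beside PDF1.4, AT1G19620 rose by 0.97 (standard error 0.10, limma adjusted p = 0.00155), and JMT lies 3 genes away. Beside PDF1.2, AT5G44410 had a log2 difference of 1.1 (limma adjusted p = 0.0267) and AT5G44390 one of 0.92 (limma adjusted p = 0.0175), while the neighbouring PDF1.2c was not analysed here. With WT replicate 1, 2 or 3 or p53 replicate 1 left out, AT5G44410 lost its call (limma adjusted p of 0.102, 0.0583, 0.0956 and 0.102). AT5G44390 lost it when p53 replicate 1 or WT replicate 2 or 3 was left out (limma adjusted p of 0.0758, 0.0637 and 0.0778). With the methods' t-test the 2 genes had an adjusted p of 0.131 and 0.10. Beside THI2.1, AT1G72220 rose by 0.88 (limma adjusted p = 0.0178) and AT1G72230 fell by 1.21 (limma adjusted p = 0.00510), with 0.0998 and 0.0562 from the methods' t-test. AT1G72220 lost its call without p53 replicate 1 (limma adjusted p = 0.0720), and AT1G72240, with a log2 difference of -0.75, passed without p53 replicate 3 at -1.15 (limma adjusted p = 0.00985).

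The genes whose values ran most alike to each of the 4 were found by Pearson r over the 6 arrays, as a description. For PDF1.4 they were ALDH11A3, a glyceraldehyde-3-phosphate dehydrogenase, with r = 0.997, AT2G04620 with r = 0.995 and AT2G23330 with r = 0.994. Their log2 differences of 0.52, 0.79 and 0.98 were far smaller than that of PDF1.4, since r compares shape and not size, and 272 of 13512 probe sets reached r = 0.95. For LCR69 they were TMT2, a sugar transporter of the vacuole, with a log2 difference of -1.83, AT5G37790 and AT4G32460, with r = 0.998, 0.997 and 0.997. TMT2 had values of 0.97, 0.71 and 0.89 in WT and -0.71, -0.88 and -1.31 in p53, close to LCR69 in size as well as shape. For PDF1.2 they were AT1G49920, AT1G25400 and AT1G44740 with r = 0.99, 0.99 and 0.98, and only 16 probe sets reached r = 0.95. AT1G25400 had values of -0.34, -0.16 and 0.45 in WT and -0.75, 0.16 and 0.47 in p53, the order of PDF1.2 on a smaller scale. PDF1.2b had r = 0.87 with PDF1.2. For THI2.1 they were AT2G38500, AT5G57330 and AT5G11770 with r = 0.99 each, with log2 differences of 0.19, 0.07 and 0.10.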

How the data were processed

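The labels name PLIER as the tool that summarized each probe set, and the methods name GeneSpring GX 11.5 for statistics. The log2 values deposited by the authors are relative to each probe set's median of 6 arrays. A supplementary array quality table lists a scaling target and background averages. That table marks its threshold test as outside bounds for all 6 arrays, and several of its spike control ratios varied widely between arrays. No source used here says whether the scaling applies to the deposited values or how background was corrected for them. Their log base is not given either. RNA was isolated with TRIzol according to the labels and with an RNeasy kit according to the methods. Of the probe sets, 64 controls were left out. Of the other 22746, 13513 name 1 gene, 503 several and 8730 none in the annotation used, and 13436 of the 13513 matched the TAIR10.1 reference. Lists were matched by locus, and peptide deformylases and protodermal factors, whose symbols also begin with PDF, were not counted as defensins. The 4 genes and all lists were chosen with earlier results of these data known.

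Genotypes were compared with limma 3.58.1 in R 4.3.3 (lmFit, eBayes, no covariate), with Benjamini-Hochberg adjustment over 22746 probe sets. Adjusted p-values come from limma, except where the text names the methods' t-test. The limma comparison, the t-test and the F test of the replicate number were first tested on simulated data. With 3 arrays against 3, the smallest p of an exact permutation test is 0.1. Around the genotype means, the WT and p53 arrays of replicates 1, 2 and 3 deviated together with r = 0.12, 0.27 and 0.34. Each exceeds the limit of 0.1, so the numbers were treated as pairs on the basis of the data, and the replicate number was added as a block in an alternative fit. Other alternatives were array median subtraction, quantile normalization, eBayes with trend and robust, the methods' t-test, the study's thresholds, a fit on probe sets that name 1 gene, and leaving out each array. Named were the 4 genes, all other family genes with a probe set, up to 4 genes that passed or else up to 2 with the smallest p from each list, and the 3 genes most like each of the 4. Other list members and the chromosomal neighbours do not follow this rule and were picked once their values were known.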

Additional observations from a re-analysis of the deposited data

How the results depend on the processing

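The log2 differences of PDF1.4 and LCR69 kept their direction under every alternative, at 3.57 and -2.68 with quantile normalization, which moved both by more than the replicate spread, and at 3.82 to 4.38 and -2.44 to -2.01 with single arrays left out. With single arrays left out PDF1.2 ran from -0.88 to 0.77 and THI2.1 from 0.51 to 1.63. With the replicate block the 4 differences remained 4.08, -2.23, -0.16 and 1.15.

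Over all probe sets 1490 were called higher and 2010 lower. With the methods' t-test these were 668 and 743, with the thresholds of the study 715 and 622, in the fit on probe sets that name 1 gene 764 and 1169, which tests fewer probe sets, and with single arrays left out 722 to 1961 and 899 to 2385. The low counts came when p53 replicate 1 (758 and 952), WT replicate 1 (793 and 954) or WT replicate 3 (722 and 899) was left out, and for lower calls also without WT replicate 2 (1304). With the replicate block the counts were 1725 and 2153, with quantile normalization 1779 and 1965, and with eBayes with trend and robust 1678 and 2283. Of the other family genes none was higher and 1 lower. With eBayes with trend and robust 1 was higher, with the replicate block 2, with the study's thresholds 1 and none lower, and with single arrays left out 0 to 1. On the jasmonate lists 2 were higher and 2 lower. With the methods' t-test 1 was higher and 1 lower, 1 was lower with eBayes with trend and robust and with the study's thresholds, and with single arrays left out 2 were higher and 1 to 4 lower. With quantile normalization 3 were lower. Among the tests of single genes, 560 values under alternatives kept their side of the threshold, 19 lost it and 9 gained it, and none reversed a call. Among the family, list and neighbouring genes that were tested, the replicate block changed the genotype call of PDF1.2b and AT1G66100 only. The genes most like each of the 4 were not part of that comparison. The cause of these changes was not tested. No filter on dim probe sets was possible on centred values.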
